A study of Homo sapiens with 18 samples.

Results

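The matrix metalloproteinases (MMPs) and the tissue inhibitors of metalloproteinases (TIMPs) were followed here in pancreatic ductal adenocarcinoma (PDAC) cells with different stem cell and epithelial-mesenchymal phenotypes. The members were chosen by gene symbol and comprised 7 MMPs, *MMP1*, *MMP2*, *MMP7*, *MMP9*, *MMP10*, *MMP13* and *MMP14*, and 3 TIMPs, *TIMP1*, *TIMP2* and *TIMP3*, 10 of the 40266 gene symbols measured. The choice was made with earlier results of these data known, so shares of members called below are descriptive and no test of the set. RNA came from the human cell lines Panc1 and Panc89, of which parental cells, a Holoclone and a Paraclone were sequenced, with 3 libraries in each of the 6 groups and 18 in all. Panc1 originated from a primary PDAC and served as the mesenchymal-like model, Panc89 came from a lymph node metastasis and served as the epithelial model, and no group received a treatment. Holoclone cells, taken as the cancer stem cell (CSC) population, and Paraclone cells, taken as non-CSCs, were isolated by single-cell cloning, sorted by colony shape and expanded, whereas parental cells are the uncloned line. Each cloned group was 1 clone of its line, so a difference between CSCs and non-CSCs cannot be told apart from a difference between the clones. The replicates were passages of the same cells, and p-values measure the spread between such passages.

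MMPs are zinc-dependent endopeptidases that are made as inactive proenzymes and cleave collagens, laminins and other components of the extracellular matrix as well as growth factors and receptors. TIMPs bind the active site of MMPs and block them. In pancreatic cancer, MMPs are made by tumor cells and by stromal cells and take part in the breakdown of basement membrane and collagen-rich stroma during invasion. Transcript levels do not measure proenzyme activation or inhibition, which act on the protein.

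The deposited values were log2(TPM + 1), where TPM is a share of all transcripts corrected for transcript length, so that levels of different genes can be set side by side. TPM keep no library total, so depth and counting error are unknown, and no floor is given for a value of 0. The limma-trend comparisons covered 16093 genes that reached 1 TPM in 3 or more libraries, and a gene was called if its Benjamini-Hochberg adjusted p over all of these genes was under 0.05. All 10 members passed this filter, *MMP9* through the 3 Panc1 Paraclone libraries alone, so that *MMP9* had to be high there. Fold changes are differences in log2(TPM + 1), which understate how much genes of about 1 TPM or less differ. In each library 12932 to 14199 genes reached 1 TPM. Panc89 Paraclone replicate 2 stood apart from the other libraries, with a mean correlation of 0.962 with its replicates against 0.970 to 0.989 in the other 17. It also had the lowest *MMP1*, *MMP10*, *MMP14*, *TIMP1* and *TIMP2* levels and the highest *MMP2* and *MMP13* levels of its group. Of the member differences printed below, those that it moved by over 1.5 times in TPM + 1, or whose call or sign it changed, are given with and without it. Differences without a call whose values are not printed, such as *MMP1* and *MMP14* in Panc89 Paraclone against parental cells, were not followed in this way.

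The labelled phenotypes of the lines were checked with marker genes. The summed level of 6 mesenchymal markers ranged from 2053 to 5181 TPM in Panc1 and from 6.01 to 33.4 TPM in Panc89 libraries, and *VIM*, the mesenchymal intermediate filament that made up most of the Panc1 sum, averaged at most 0.361 TPM in any Panc89 group. The 6 markers did not all differ in this direction, as the matrix protein gene *FN1* averaged 0.213 to 0.464 TPM in Panc1 and 1.20 to 13.6 TPM in Panc89 groups, *ZEB2*, a repressor of *CDH1*, was highest in Panc89 Paraclone cells at 2.10 TPM, and *CDH2*, the neural cadherin, overlapped between the lines at 1.38 to 13.8 and 3.10 to 8.32 TPM. The 6 epithelial markers summed to 2593 to 5016 TPM in Panc1 and 2816 to 4097 TPM in Panc89, as keratins were high in both lines, whereas *CDH1*, the epithelial cadherin, averaged 0.990 to 2.84 TPM in Panc1 and 75.3 to 98.0 TPM in Panc89 groups. Of 7 fibroblast markers, *COL1A1* was the 1 that reached a mean of 1 TPM in any group, and the sum was 1.43 to 27.6 TPM. Of 5 leukocyte markers, *PTPRC*, the pan-leukocyte antigen, averaged at most 0.482 TPM in any group, and the sum of 52.9 to 151 TPM in Panc1 and 13.7 to 66.2 TPM in Panc89 came mainly from *CD68*. The 4 endothelial markers summed to 0.0516 to 0.416 TPM in Panc1 libraries, to 55.2 to 69.1 TPM in parental Panc89 cells, with *PECAM1* leading, and to 1.01 to 8.90 TPM in the Panc89 clones. In bulk RNA, fewer cells of a kind and less RNA per cell cannot be told apart.

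In the GRCh38 annotation, 4 members lie in a row of MMP genes on the minus strand of chromosome 11, namely *MMP7* (chr11:102520508-102530750), *MMP10* (chr11:102770502-102780628), *MMP1* (chr11:102789401-102798160) and *MMP13* (chr11:102942995-102955732). The other members are dispersed, with *MMP2* on the plus strand at chr16:55389700-55506691, *MMP9* on the plus strand at chr20:46008908-46016561 and *MMP14* on the plus strand at chr14:22836560-22849041. *TIMP1* (chrX:47582408-47586789, plus strand) lies within *SYN1* on the opposite strand and *TIMP3* (chr22:32801705-32863041, plus strand) within *SYN3* on the opposite strand, in both cases with 0 shared exon bases. *TIMP2* lies on the minus strand at chr17:78852977-78925387. Exons of *MMP1* share 223 bases with the antisense pseudogene transcript *WTAPP1*, and those of *MMP9* share 430 bases with the antisense RNA *SLC12A5-AS1*. Of the 31-base words in the exons, 13.8% for *MMP9*, 9.33% for *TIMP2*, 7.11% for *MMP10* (with *MMP3*) and 5.07% for *MMP1* also occur in another gene, 3.11% or less for the other members and 0 for *MMP14*, *TIMP1* and *TIMP3*, so the values of the former depend somewhat on how kallisto divided shared reads.

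The 250 bases before the RefSeq start are shown for the members that have an entry in the RefSeq promoter table (GRCh38.p14), 5 of 10, to set 2 genes of the chromosome 11 row beside *MMP14*, *TIMP1* and *TIMP3*. Of these 5, all but *MMP10* were called between the Panc89 clones. *MMP1*, *MMP2*, *MMP9*, *MMP13* and *TIMP2* have no entry. The RefSeq starts differ in part from the gene positions given above, by which the windows of *MMP7*, *MMP14* and *TIMP1* end inside the gene. Capitals mark TGAGTCA, the motif of AP-1 (searched on both strands), and TATAAA, the TATA box, in *MMP7* and *MMP10*, and they mark CG pairs in *MMP14*, *TIMP1* and *TIMP3*. Each sequence is written 5′ to 3′ on the strand of its gene, which is minus for *MMP7* (chr11:102530748-102530997) and *MMP10* (chr11:102780629-102780878) and plus for *MMP14* (chr14:22836335-22836584), *TIMP1* (chrX:47582186-47582435) and *TIMP3* (chr22:32801455-32801704).
MMP7: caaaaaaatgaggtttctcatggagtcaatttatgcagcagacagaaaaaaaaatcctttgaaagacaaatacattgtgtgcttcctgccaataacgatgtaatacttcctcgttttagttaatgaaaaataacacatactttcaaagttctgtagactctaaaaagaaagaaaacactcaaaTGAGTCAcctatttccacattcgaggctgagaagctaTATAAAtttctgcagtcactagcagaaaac
MMP10: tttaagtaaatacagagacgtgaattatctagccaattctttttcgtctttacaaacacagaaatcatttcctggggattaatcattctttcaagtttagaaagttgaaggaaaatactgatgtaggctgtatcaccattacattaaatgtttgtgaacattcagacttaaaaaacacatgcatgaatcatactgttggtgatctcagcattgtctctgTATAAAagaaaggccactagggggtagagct
MMP14: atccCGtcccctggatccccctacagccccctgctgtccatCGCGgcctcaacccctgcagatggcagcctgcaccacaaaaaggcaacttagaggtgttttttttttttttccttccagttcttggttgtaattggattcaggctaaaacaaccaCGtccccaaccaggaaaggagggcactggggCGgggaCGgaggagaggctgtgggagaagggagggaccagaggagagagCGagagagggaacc
TIMP1: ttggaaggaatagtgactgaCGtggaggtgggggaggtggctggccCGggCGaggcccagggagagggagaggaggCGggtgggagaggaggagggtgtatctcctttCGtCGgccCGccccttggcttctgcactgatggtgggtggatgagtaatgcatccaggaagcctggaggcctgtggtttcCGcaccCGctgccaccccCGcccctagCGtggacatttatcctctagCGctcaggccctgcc
TIMP3: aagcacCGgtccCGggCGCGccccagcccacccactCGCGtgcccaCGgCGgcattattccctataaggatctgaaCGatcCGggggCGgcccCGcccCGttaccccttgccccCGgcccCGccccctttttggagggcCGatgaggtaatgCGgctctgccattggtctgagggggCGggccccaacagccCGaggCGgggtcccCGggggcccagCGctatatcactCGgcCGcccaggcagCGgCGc
The AP-1 motif occurred in 4.2% of the 35116 promoters of this length and once in that of *MMP7*, with its first base at −67 from the start. TATAAA occurred in 10.72% of promoters, at −30 in *MMP7* and −31 in *MMP10*, and in none of the other printed members. These promoters of clustered genes held 3 and 2 CG pairs, against a median of 11 over all promoters. *MMP14* held 7, *TIMP1* 12 and *TIMP3* 26, more than 80.4% of promoters. These matches describe the letters of the window and are not evidence of binding.

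**Figure D1:**
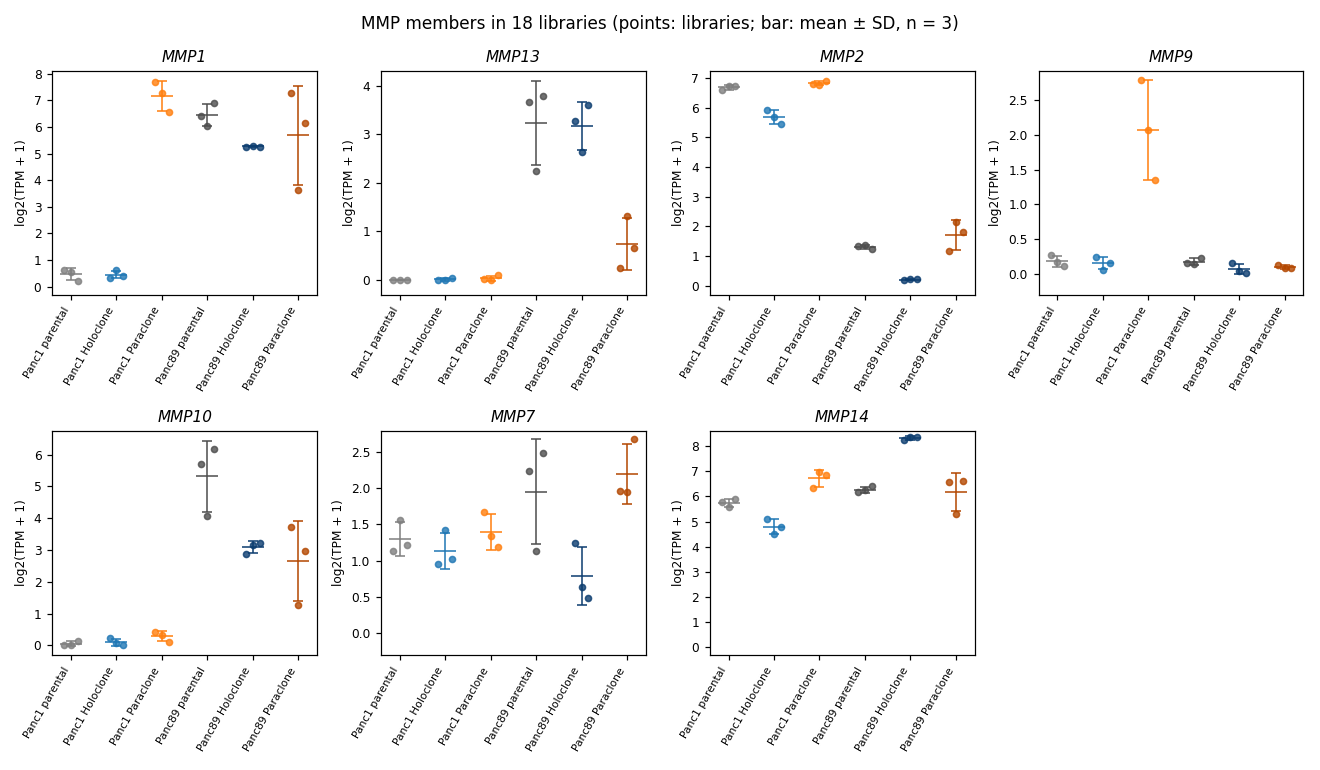
Levels of the 7 MMP members in each library, as log2(TPM + 1) on the vertical axis, with the 6 groups along the horizontal axis (points are libraries, bars the mean ± SD, n = 3). *MMP1* was near 0 in parental and Holoclone Panc1 cells and high in the other 4 groups, *MMP2* separated the lines, and *MMP14* was highest in all 3 Panc89 Holoclone libraries.

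The first question was which members distinguish the CSC from the non-CSC population of each line. In Panc1, 5 of the 10 members were called, against 37.3% of all genes tested, and all 5, *MMP1*, *MMP2*, *MMP9*, *MMP14* and *TIMP1*, were lower in Holoclone than in Paraclone cells. Of these, *MMP9* had to be high in Panc1 Paraclone cells to be tested at all, so its call adds no support. The median log2 fold change was −0.57 over the members and 0.19 over all genes tested. In Panc89, 7 of 10 were called, against 35.7% of all genes, with *MMP13*, *MMP14* and *TIMP3* higher and *MMP2*, *MMP7*, *TIMP1* and *TIMP2* lower in Holoclone cells, and a median of −0.23 over the members and 0.09 over all genes. As the members were chosen with earlier results known, these shares do not show that the set changed more than other genes. With upper quartile scaling the median of all genes in Panc1 moved to 0.0068 and *TIMP2* was also called lower, which made 6 members, and in Panc89 the same number, 7, was called.

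The interstitial collagenases *MMP1* and *MMP13*, which cut the triple helix of fibrillar collagens, showed different patterns in the lines. *MMP1* was at 0.265, 0.525 and 0.334 TPM in the Panc1 Holoclone libraries and at 204, 155 and 94.3 TPM in the Panc1 Paraclone libraries. No libraries overlapped between these groups, and the log2 fold change of Holoclone against Paraclone cells was −6.72 ± 0.60 (SE, limma adjusted p = 4.70e-07). Parental Panc1 cells, at 0.561, 0.451 and 0.157 TPM, were as low as Holoclone cells, with overlapping libraries.

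In Panc89, *MMP1* was high in every group. Holoclone libraries lay close together at 37.0, 38.4 and 37.4 TPM, parental libraries were at 84.2, 65.3 and 118 TPM, and Paraclone libraries spread from 154 through 11.5 in replicate 2 to 70.7 TPM. The Paraclone group overlapped both others, and Holoclone against Paraclone cells gave a log2 fold change of −0.42 ± 0.60 (adjusted p = 0.633). Leaving out Paraclone replicate 2 moved it to −1.45 (adjusted p = 0.00283), and leaving out Paraclone replicate 1 moved it to 0.37 (adjusted p = 0.656), so that no direction held for all libraries. The change in Panc89 minus that in Panc1 was 6.30 ± 0.85 on the log2 scale (adjusted p = 3.68e-05), and 5.27 when Panc89 Paraclone replicate 2 was left out (adjusted p = 4.89e-07). The antisense *WTAPP1*, with which *MMP1* shares exon bases, was at 0.0124 to 0.155 TPM in Panc1 Paraclone, 7.51 to 11.7 TPM in Panc89 Holoclone and 3.00 to 3.64 TPM in Panc89 Paraclone libraries. Its part in the *MMP1* values was not tested.

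*MMP13* was listed at 0 in all 3 parental and in 2 of 3 Holoclone Panc1 libraries and did not exceed 0.0703 TPM in any Panc1 library. In Panc89 it was at 11.7, 3.73 and 12.9 TPM in parental, 8.66, 5.20 and 11.1 TPM in Holoclone and 0.186, 1.50 and 0.584 TPM in Paraclone libraries. The Paraclone libraries lay below all the others, with a log2 fold change of Holoclone against Paraclone cells of 2.43 ± 0.35 (adjusted p = 6.19e-05). *MMP13* thus ran opposite to *TIMP1* and *TIMP2* between the Panc89 clones, but in the same direction as *TIMP3*. The difference of the change between the lines was 2.45 ± 0.49 (adjusted p = 0.00119).

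The gelatinases *MMP2* and *MMP9* degrade denatured collagen and type IV collagen of basement membranes. *MMP2* was at 59.3, 50.8 and 42.4 TPM in Panc1 Holoclone and at 111, 109 and 119 TPM in Panc1 Paraclone libraries. In Panc89 it was at 0.148, 0.163 and 0.159 TPM in Holoclone and at 1.25, 3.45 and 2.53 TPM in Paraclone libraries. Thus Holoclone cells were lower than Paraclone cells in both lines without overlap, by log2 fold changes of −1.15 ± 0.19 in Panc1 (adjusted p = 1.83e-04) and −1.50 ± 0.19 in Panc89 (adjusted p = 1.56e-05). The test of the difference between these changes gave −0.35 ± 0.26 (adjusted p = 0.333). Whether the lines differed depended on the pseudocount and on 1 library. With 0.1 TPM in place of 1 added before the logarithm, the Panc1 value was −1.17 and the Panc89 value −3.18, and their difference of −2.01 was called (adjusted p = 4.17e-04). Leaving out Panc89 Paraclone replicate 1 also gave a call (−0.62, adjusted p = 0.0214), and leaving out replicate 2 gave −0.13 (adjusted p = 0.687).

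*MMP9* was at 5.91, 3.20 and 1.55 TPM in Panc1 Paraclone cells and no higher than 0.202 TPM in any library of the other 5 groups. It passed the filter through the Panc1 Paraclone libraries alone, so p-values of comparisons with that group are not support for a difference. The log2 fold change of Holoclone against Paraclone cells was −1.92 ± 0.24 in Panc1 (adjusted p = 1.35e-05) and −0.03 ± 0.24 in Panc89 (adjusted p = 0.951), where both groups were under 0.11 TPM. With 0.1 TPM added, the Panc1 value was −3.96. The change in Panc89 minus that in Panc1 was 1.89 ± 0.33 (adjusted p = 4.18e-04). The *SLC12A5-AS1* RNA that shares exon bases with *MMP9* was at 0.949 to 1.17 TPM in Panc1 Paraclone and 0.887 to 1.43 TPM in Panc1 Holoclone libraries, which overlapped. The leukocyte markers, whose cells are a known source of MMP9, summed to 124 to 151 TPM in Panc1 Paraclone and 52.9 to 69.7 TPM in Panc1 Holoclone libraries through *CD68*. *PTPRC* averaged 0.0359 TPM in the Paraclone cells and was listed at 0 in the Holoclone cells. Means of *CD14* (0.377 against 0.523 TPM), *CSF1R* (0.0164 against 0.139 TPM) and *LYZ* (0.0684 against 0.0718 TPM) were lower in the Paraclone cells. The part of such cells in the *MMP9* level was not tested.

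*MMP10* (stromelysin-2), which cleaves proteoglycans and laminin and activates procollagenases, was expressed in Panc89. It was at 51.1, 15.8 and 71.1 TPM in parental, 6.32, 7.93 and 8.30 TPM in Holoclone and 12.3, 1.43 and 6.79 TPM in Paraclone libraries of Panc89, and at most 0.344 TPM in any Panc1 library. The clones overlapped each other and lay below all parental libraries. Holoclone against Paraclone cells gave 0.42 ± 0.51 in Panc89 (adjusted p = 0.565), which became −0.26 without Paraclone replicate 2 (adjusted p = 0.665).

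*MMP7* (matrilysin), a small MMP of epithelial cells, was low in every group. It ranged from 0.944 to 2.19 TPM over the 9 Panc1 libraries. In Panc89 it was at 1.36, 0.557 and 0.392 TPM in Holoclone and at 2.88, 2.85 and 5.37 TPM in Paraclone libraries. These groups did not overlap, and Holoclone cells were lower by −1.41 ± 0.31 (adjusted p = 0.00255). The difference of this change from that in Panc1 was −1.14 ± 0.45 and was not called (adjusted p = 0.0586), but it was called without Panc89 Holoclone replicate 1 (−1.37, adjusted p = 0.0277), when Panc89 Paraclone replicate 2 was left out (−1.26, adjusted p = 0.0496) and with only these 4 groups in the fit (adjusted p = 0.0352).

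*MMP14* encodes the membrane-type MMP that cleaves collagen at the cell surface and activates proMMP2. In Panc1 it was at 33.2, 21.5 and 26.6 TPM in Holoclone and at 79.5, 124 and 116 TPM in Paraclone libraries. In Panc89 it was at 302, 331 and 329.7 TPM in Holoclone and at 95.4, 38.4 and 95.9 TPM in Paraclone libraries. The direction was thus opposite in the lines, without overlap in either, with log2 fold changes of Holoclone against Paraclone cells of −1.93 ± 0.27 in Panc1 (adjusted p = 5.56e-05) and 2.16 ± 0.27 in Panc89 (adjusted p = 1.87e-05). The difference between them was 4.09 ± 0.39 (adjusted p = 1.11e-06), and 3.66 when Panc89 Paraclone replicate 2 was left out (adjusted p = 6.55e-08). In the Panc89 Holoclone cells this highest *MMP14* level stood beside the lowest *MMP2* level of all groups, 0.156 ± 0.008 TPM (SD, n = 3), while both genes were lower in Panc1 Holoclone than in Panc1 Paraclone cells.

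**Figure D2:**
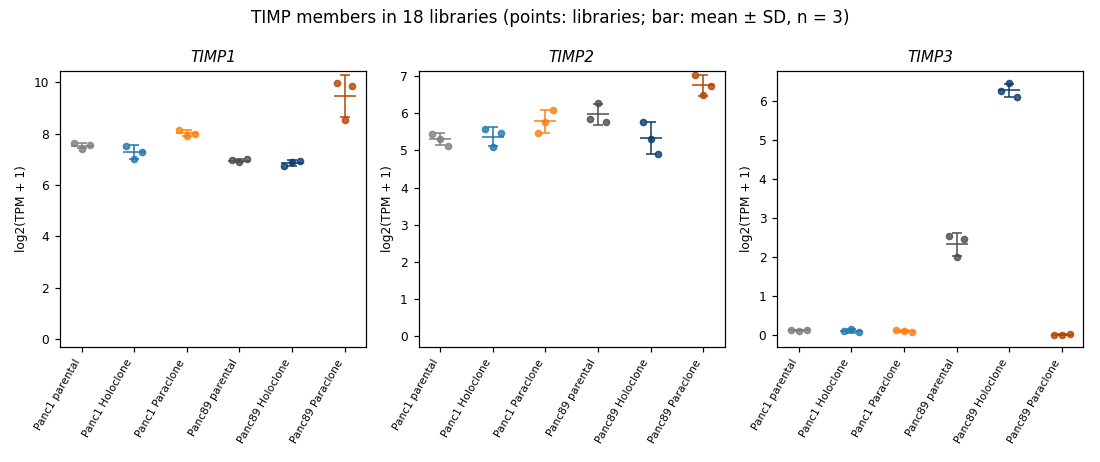
Levels of the 3 TIMP members in each library, as log2(TPM + 1) on the vertical axis, with the 6 groups along the horizontal axis (points are libraries, bars the mean ± SD, n = 3). *TIMP1* and *TIMP2* were highest in Panc89 Paraclone cells and *TIMP3* in Panc89 Holoclone cells.

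Of the inhibitors, *TIMP1*, a soluble inhibitor of many MMPs, was expressed most in every group. In Panc89 it was at 106, 118 and 122 TPM in Holoclone and at 1012, 369 and 929 TPM in Paraclone libraries, of which the 369 TPM were those of replicate 2. The log2 fold change of −2.60 ± 0.27 (adjusted p = 2.08e-06) became −3.07 without that library (adjusted p = 4.96e-10). In Panc1 it was at 184, 127 and 155 TPM in Holoclone and at 283, 241 and 249 TPM in Paraclone libraries, without overlap, a log2 fold change of −0.74 ± 0.27 (adjusted p = 0.0390). This call was lost without Holoclone replicate 2 or 3 or any 1 of the 3 Paraclone replicates (adjusted p between 0.0687 and 0.139) and with no filter on low values (0.0783). The change in Panc89 minus that in Panc1 was −1.86 ± 0.38 (adjusted p = 0.00122).

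*TIMP2*, which inhibits MMPs but also forms the complex with MMP14 in which proMMP2 is activated, was at 53.6, 38.8 and 28.8 TPM in Panc89 Holoclone and at 131, 88.6 and 106 TPM in Panc89 Paraclone libraries. These groups did not overlap and differed by −1.43 ± 0.23 (adjusted p = 1.55e-04). In Panc1 the libraries overlapped, at 46.5, 32.8 and 43.4 TPM in Holoclone and 43.7, 53.8 and 67.5 TPM in Paraclone cells, with a log2 fold change of −0.41 ± 0.23 (adjusted p = 0.175) that was called after median-of-ratios scaling (−0.68, adjusted p = 0.0309). The changes differed between the lines by −1.02 ± 0.32 (adjusted p = 0.0220). This call was lost without Panc1 Holoclone replicate 1, Panc1 Paraclone replicate 1, Panc89 Holoclone replicate 3 or Panc89 Paraclone replicate 1 (adjusted p between 0.0550 and 0.0585) and with upper quartile scaling (0.0503).

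*TIMP3*, which binds to the extracellular matrix and also inhibits ADAM proteases, had the largest difference between the Panc89 clones of the 10 members. It was at 75.6, 86.9 and 68.4 TPM in Holoclone libraries, 4.83, 3.01 and 4.51 TPM in parental libraries and 0.0088, 0.0055 and 0.0144 TPM in Paraclone libraries of Panc89. Thus the 3 groups were ordered without overlap, and the log2 fold change of Holoclone against Paraclone cells was 6.26 ± 0.14 (adjusted p = 6.52e-14), or 9.45 with 0.1 TPM added before the logarithm. All Panc1 libraries were between 0.0519 and 0.125 TPM, above every Panc89 Paraclone library but far under 1 TPM. The change in Panc89 minus that in Panc1 was 6.26 ± 0.20 (adjusted p = 9.20e-12).

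**Figure D3:**
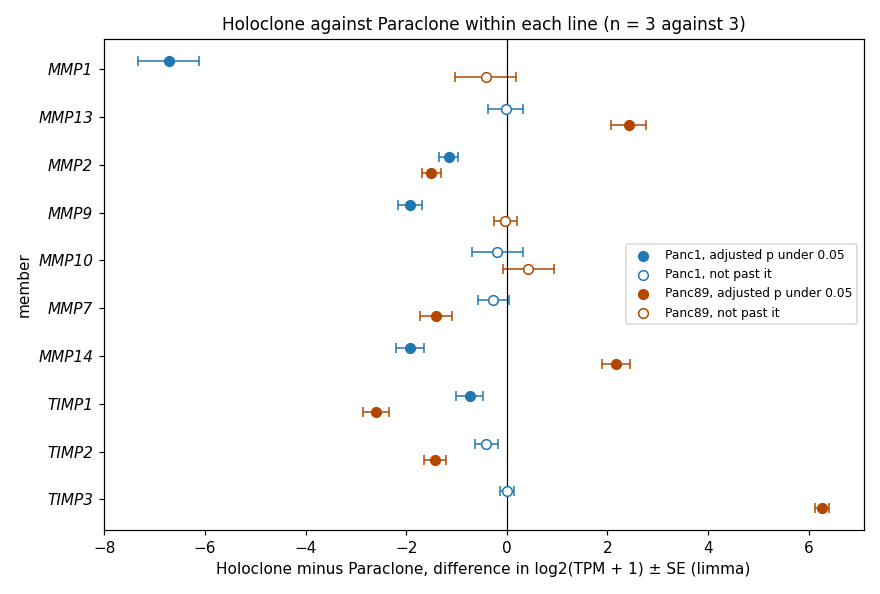
Holoclone minus Paraclone difference in log2(TPM + 1) on the horizontal axis for the 10 members on the vertical axis, with the SE from limma (n = 3 against 3; filled points have an adjusted p under 0.05). *MMP14* lies on opposite sides of 0 in the lines, *MMP2* and *TIMP1* on the same side in both, and *MMP1* and *TIMP3* far from 0 in 1 line each.

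Tested as the change in Panc89 minus that in Panc1, 7 of the 10 members were called, against 35.1% of all genes. These were *MMP1*, *MMP9*, *MMP13*, *MMP14* and *TIMP3*, which were higher in this difference, and *TIMP1* and *TIMP2*, which were lower. For *MMP9* the filter had required high Panc1 Paraclone values, so its call adds no support. *MMP2*, *MMP7* and *MMP10* were not called, *MMP2* and *MMP7* with the exceptions given above.

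Parental cells were compared to ask how the uncloned epithelial and mesenchymal-like lines differ. Of the 10 members 6 were called, against 66.0% of all genes, with 5 higher and 1 lower in Panc89. *MMP1*, at 89.3 ± 26.9 TPM (SD, n = 3) in Panc89 and 0.390 ± 0.209 TPM in Panc1, and *MMP10*, at 46.0 ± 28.0 and 0.0326 ± 0.0565 TPM, were higher by log2 fold changes of 5.99 ± 0.60 (adjusted p = 2.97e-07) and 5.27 ± 0.51 (adjusted p = 2.05e-07). *MMP13* was at 9.45 ± 4.99 TPM in Panc89 and listed at 0 in Panc1, so that no fold is given, and *TIMP3* was higher by 2.21 ± 0.14 (adjusted p = 1.20e-09). *MMP2* was lower by −5.38 ± 0.19 (adjusted p = 1.03e-12), at 1.48 ± 0.11 TPM in Panc89 and 102 ± 6 TPM in Panc1 cells. Of the mesenchymal markers, *VIM*, *ZEB1* and *SPARC* were also lower in parental Panc89 cells, at 0.0653, 0.0519 and 0.242 TPM against 3779, 17.2 and 888 TPM, whereas *FN1* was at 3.60 against 0.213 TPM, *ZEB2* at 0.658 against 0.468 TPM and *CDH2* at 3.10 against 4.67 TPM.

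*TIMP2* was higher in parental Panc89 cells by 0.67 ± 0.23 (adjusted p = 0.0163), a call that was lost without Panc1 parental replicate 3 (0.0608) or Panc89 parental replicate 2 (0.0839). *TIMP1*, with −0.58 ± 0.27 (adjusted p = 0.0644), *MMP14*, with 0.52 ± 0.27 (adjusted p = 0.106), and *MMP7*, with 0.65 ± 0.31 (adjusted p = 0.0813), were not called. The gelatinase *MMP9* was not called either (−0.006 ± 0.236, adjusted p = 0.9865), at 0.131 TPM in Panc89 and 0.136 TPM in Panc1 parental cells with overlapping libraries. *TIMP1* and *MMP14* were called with only the parental groups in the fit (adjusted p = 8.52e-04 and 0.00633), *MMP14* and *MMP7* after median-of-ratios scaling (0.0389 and 0.0326), and *MMP7* also after upper quartile scaling (0.0424) and without Panc89 parental replicate 2 (1.06, adjusted p = 0.00341).

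Between the Holoclone groups, 6 of 10 members were called, against 65.8% of all genes. *MMP1* (4.82 ± 0.60), *MMP10* (2.98 ± 0.51), *MMP13* (3.15 ± 0.35), *MMP14* (3.54 ± 0.27) and *TIMP3* (6.16 ± 0.14) were higher and *MMP2* (−5.47 ± 0.19) was lower in Panc89 Holoclone cells, with adjusted p of at most 9.12e-05. *TIMP1* was not called (−0.42 ± 0.27, adjusted p = 0.183), although its libraries did not overlap, at 115 ± 9 TPM in Panc89 and 155 ± 29 TPM in Panc1 Holoclone cells (SD, n = 3). *TIMP2* was at 40.4 ± 12.5 and 40.9 ± 7.2 TPM, with overlapping libraries and a value of −0.05 ± 0.23 (adjusted p = 0.869) that had no stable sign, being 0.066 after upper quartile and 0.14 after median-of-ratios scaling.

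Between the Paraclone groups, 7 of 10 were called, against 60.7% of all genes. *TIMP1* (1.45 ± 0.27, adjusted p = 2.01e-04), *TIMP2* (0.97 ± 0.23, adjusted p = 0.00157), *MMP10* (2.37 ± 0.51, adjusted p = 8.24e-04) and *MMP7* (0.79 ± 0.31, adjusted p = 0.0395) were higher in Panc89. *MMP2* (−5.12 ± 0.19, adjusted p = 1.76e-12), *MMP9* (−1.97 ± 0.24, adjusted p = 2.49e-06) and *MMP1* (−1.49 ± 0.60, adjusted p = 0.0426) were lower. The filter had required *MMP9* to be high in Panc1 Paraclone cells. Leaving out Panc89 Paraclone replicate 2 moved *MMP10* to 3.06 (adjusted p = 1.73e-05). The *MMP1* libraries overlapped, and its call was lost when Panc89 Paraclone replicate 2 was left out (−0.46, adjusted p = 0.243) and without Panc1 Paraclone replicate 1 (0.136) or 2 (0.0937), while the value was −2.28 without Panc89 Paraclone replicate 1 (adjusted p = 0.00145). This *MMP1* call was also lost with 0.1 TPM added (0.0571), no filter (0.0861), median-of-ratios scaling (0.0562) and the 2 groups fitted alone (0.216). The *MMP7* call was lost without Panc1 Paraclone replicate 2 (adjusted p = 0.0909) or 3 (0.116) or Panc89 Paraclone replicate 3 (0.178), with 0.1 TPM added (0.0625) and with no filter (0.0785). *MMP13*, at 0.70 ± 0.35 (adjusted p = 0.0933), was called with 0.1 TPM added (2.44, adjusted p = 0.00120) and when Panc89 Paraclone replicate 1 was left out (0.95, adjusted p = 0.0418), and was 0.42 without replicate 2 (adjusted p = 0.339). *MMP14*, at −0.56 ± 0.27 (adjusted p = 0.0919), was called without Panc1 Paraclone replicate 1 or Panc89 Paraclone replicate 1 or 3 (adjusted p between 0.0346 and 0.0416), and was −0.13 without Panc89 Paraclone replicate 2 (adjusted p = 0.579).

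The clones were also set against their parental line, with the parental libraries shared between these comparisons. In Panc1, Holoclone cells differed from parental cells in 2 of 10 members, against 10.9% of all genes. *MMP2* was lower by −1.01 ± 0.19 (adjusted p = 0.00216) and *MMP14* by −0.95 ± 0.27 (adjusted p = 0.0350), and the latter call was lost without any 1 of the 3 parental replicates or Holoclone replicate 2 or 3 (adjusted p between 0.0553 and 0.126). Panc1 Paraclone cells differed from parental cells in 3 of 10 members, against 28.6% of all genes, and all were higher. These were *MMP1* (6.71 ± 0.60, adjusted p = 6.76e-07), *MMP9* (1.89 ± 0.24, adjusted p = 2.74e-05) and *MMP14* (0.98 ± 0.27, adjusted p = 0.0150), whose call was lost without Paraclone replicate 2 (0.0682) or 3 (0.0526). The *MMP9* call carries the limit that the filter required high Paraclone values. *TIMP1* (0.48 ± 0.27, adjusted p = 0.201) and *TIMP2* (0.49 ± 0.23, adjusted p = 0.127) were not called, although *TIMP1* was with the 2 groups fitted alone (0.0210) and *TIMP2* with either scaling (0.0491 and 0.0324).

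In Panc89, Holoclone cells differed from parental cells in 6 of 10 members, against 24.7% of all genes. *MMP14* (2.06 ± 0.27, adjusted p = 5.13e-05) and *TIMP3* (3.94 ± 0.14, adjusted p = 3.48e-11) were higher. *MMP2* (−1.10 ± 0.19, adjusted p = 4.54e-04), *MMP10* (−2.23 ± 0.51, adjusted p = 0.00437), *MMP7* (−1.16 ± 0.31, adjusted p = 0.0131) and *TIMP2* (−0.64 ± 0.23, adjusted p = 0.0497) were lower. The *MMP7* libraries overlapped. Its call was lost without parental replicate 1 or 3 or Holoclone replicate 3 (adjusted p between 0.0589 and 0.0744) and with the 2 groups fitted alone (0.103). The *TIMP2* call was lost without any 1 of the 3 parental replicates or Holoclone replicate 2 or 3 (adjusted p between 0.0594 and 0.223), and its value was −0.43 without Holoclone replicate 3. This *TIMP2* call was also lost with 0.1 TPM added (0.0515), with no filter (0.0847) and with the 2 groups fitted alone (0.140). *MMP1*, at −1.18 ± 0.60 (adjusted p = 0.174), was called with the 2 groups fitted alone (0.0165).

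Panc89 Paraclone cells differed from parental cells in 5 of 10 members, against 19.4% of all genes. *TIMP1* was higher by 2.51 ± 0.27 (adjusted p = 8.90e-06) and *TIMP2* by 0.78 ± 0.23 (adjusted p = 0.0228). *MMP10* was lower by −2.66 ± 0.51 (adjusted p = 0.00156), *MMP13* by −2.49 ± 0.35 (adjusted p = 1.17e-04) and *TIMP3* by −2.32 ± 0.14 (adjusted p = 2.16e-08). With these 2 groups fitted alone, the calls of *MMP10* (0.0912) and *TIMP2* (0.0567) were lost. Leaving out Paraclone replicate 2 moved *MMP10* to −1.97 (adjusted p = 0.00344). The *TIMP2* call was also lost without parental replicate 1 or 3 or Paraclone replicate 1 or 3 (adjusted p between 0.0579 and 0.109). *MMP10* was thus lower in both Panc89 clones than in the parental cells, in which the endothelial marker *PECAM1* was also highest, at 60.1 TPM against 0.856 and 4.54 TPM in Holoclone and Paraclone cells. The endothelial marker *CDH5* was likewise highest in the parental cells, at 3.78 TPM against 0.392 and 1.59 TPM in Holoclone and Paraclone cells. *VWF* was lowest in the parental cells, at 0.105 TPM against 0.235 and 0.147 TPM. The endothelial receptor *KDR* averaged at most 0.0047 TPM in these groups, and the part of endothelial cells in the *MMP10* level was not tested.

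**Figure D4:**
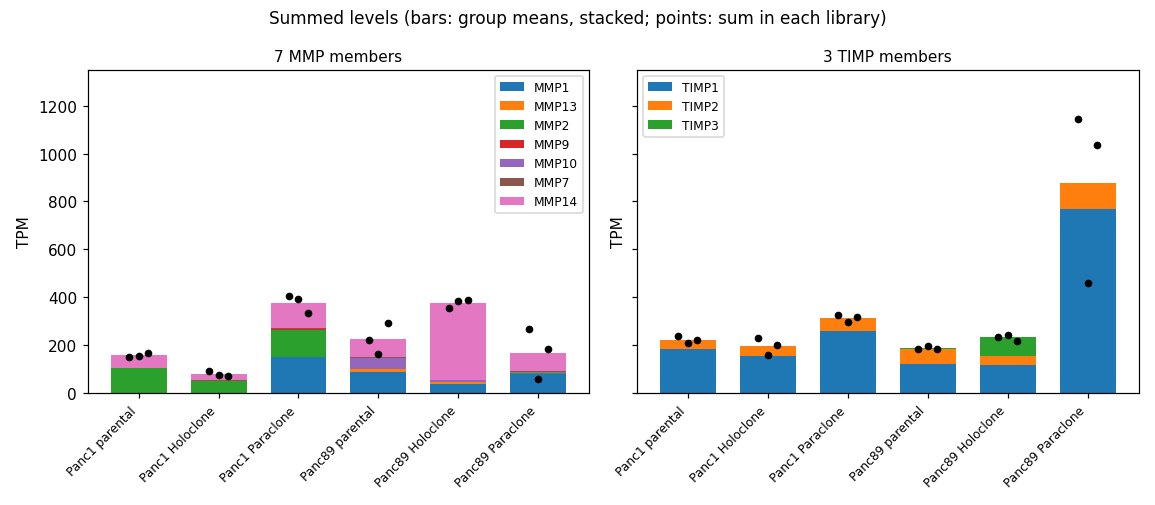
Summed TPM (vertical axis) of the 7 MMP members and of the 3 TIMP members in the 6 groups, with stacked bars for group means and points for the sum in each library. *MMP2*, *MMP1* or *MMP14* led the MMP sum depending on the group, and *TIMP1* led the TIMP sum in every group.

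Summed over the members, which gives a level of transcript and no balance of activity, the 7 MMPs came to 157 ± 7 TPM in parental, 79.7 ± 12.6 TPM in Holoclone and 376 ± 38 TPM in Paraclone cells of Panc1 (SD, n = 3). In Panc89 the sums were 226 ± 65, 375 ± 17 and 169 ± 104 TPM in the same order, so that Holoclone cells had the lowest sum in Panc1 and the highest in Panc89. *MMP2* gave 65.1% and 63.8% of the sum in parental and Holoclone Panc1 cells, *MMP1* gave 40.1% in Panc1 Paraclone, 39.5% in parental Panc89 and 46.5% in Panc89 Paraclone cells, and *MMP14* gave 85.5% in Panc89 Holoclone cells. The 3 TIMPs summed to 223 ± 15, 196 ± 35 and 313 ± 16 TPM in Panc1 and 189 ± 7, 233 ± 12 and 879 ± 368 TPM in Panc89 cells. *TIMP1* gave 49.5% of the TIMP sum in Panc89 Holoclone cells, in which *TIMP3* came next, and 64.8% to 87.7% in the other groups. In Panc89 Paraclone replicate 2 the MMP sum was 59.2 and the TIMP sum 458 TPM, the lowest of that group in both.

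**Figure D5:**
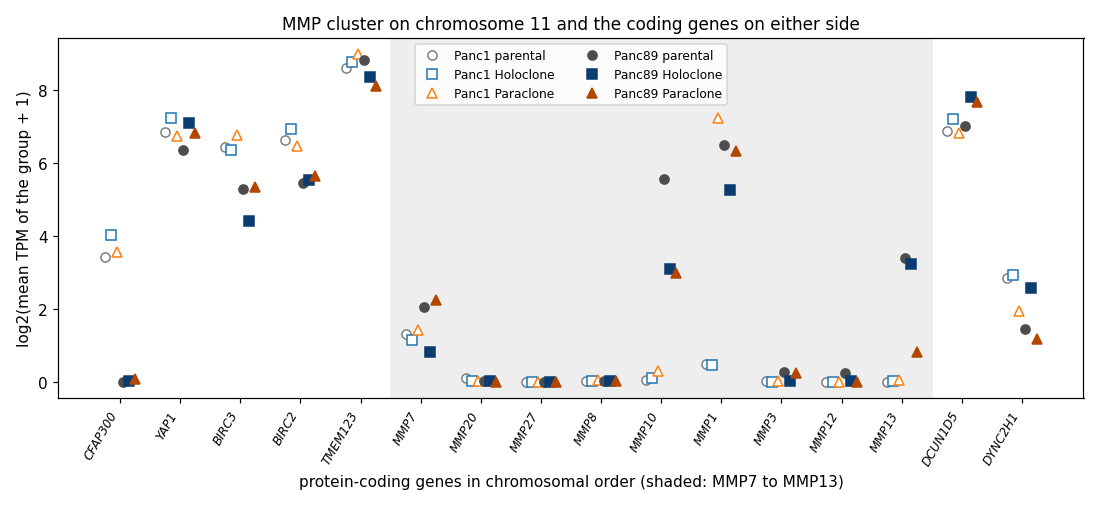
Group means of protein-coding genes in their order along chromosome 11, as log2(mean TPM + 1) on the vertical axis, from the 5 genes before the MMP cluster to the 2 after it (shaded from *MMP7* to *MMP13*; open symbols Panc1, filled symbols Panc89). Within the cluster, *MMP7*, *MMP10*, *MMP1* and *MMP13* were expressed and the other 5 genes were near 0 in every group.

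The 4 members on chromosome 11 are neighbors, so their levels were set beside those of the genes around them. From *MMP7* to *MMP13* the cluster spans 435.2 kb and holds 9 protein-coding genes, all of them MMPs. The 5 that are not members, *MMP20*, *MMP27*, *MMP8*, *MMP3* and *MMP12*, did not pass the filter, and no group mean exceeded 0.209 TPM. *MMP10* ends 8772 bases before *MMP1*, yet in Panc1 Paraclone cells *MMP1* was at 151 ± 55 TPM and *MMP10* at 0.227 ± 0.133 TPM (SD, n = 3). All 7 coding genes within 500000 bases on either side were tested. Between the Panc1 clones 4 of these were higher and 0 lower in Holoclone cells, with log2 fold changes from −0.29 to 0.98, whereas *MMP1* fell by 6.72. Between the Panc89 clones 2 were higher and 1 lower, with values from −0.97 to 1.42, the highest being *DYNC2H1*, beside −1.41 for *MMP7* and 2.43 for *MMP13*. Between the parental lines 0 were higher and 5 lower in Panc89, with values from −3.33 to 0.22, whereas *MMP1*, *MMP10* and *MMP13* were higher.

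Genes with related roles were counted in the Holoclone against Paraclone comparisons, where 37.3% of all genes were called in Panc1 and 35.7% in Panc89. Of 17 genes, the other MMPs and *TIMP4*, 10 were tested, of which 2 were higher and 0 lower in Panc1 and 3 higher and 2 lower in Panc89 Holoclone cells. In Panc89, *MMP11* (stromelysin-3) was higher by 2.54 ± 0.25 (adjusted p = 1.48e-06), *TIMP4* by 2.10 ± 0.28 (adjusted p = 3.55e-05), and *MMP19* lower by −2.06 ± 0.20 (adjusted p = 1.18e-06). *MMP19* passed the filter through the 3 Panc89 Paraclone libraries alone, so it had to be high there and its call adds no support. *TIMP4* was thus higher together with *TIMP3* in Panc89 Holoclone cells, at 15.5 ± 9.3 against 2.50 ± 0.66 TPM (SD, n = 3), and was listed at 0 in every Panc1 library.

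Of 23 genes for activation, inhibition and clearance of MMPs, 18 were tested, with 2 higher and 4 lower in Panc1 and 8 higher and 4 lower in Panc89 Holoclone cells. The plasminogen activator *PLAT* was higher in Panc89 by 3.16 ± 0.36 (adjusted p = 5.84e-06) and *TM4SF1*, a tetraspanin-like membrane protein, lower by −2.45 ± 0.51 (adjusted p = 0.00143). *LCN2*, whose protein binds MMP9, was higher in both lines, by 2.50 ± 0.70 in Panc1 (adjusted p = 0.0107) and 2.02 ± 0.70 in Panc89 (adjusted p = 0.0351), where libraries overlapped. Of 16 ADAM and ADAMTS proteases, 9 were tested, with 0 higher and 4 lower in Panc1 and 3 higher and 3 lower in Panc89. *ADAM19* was lower in Holoclone cells of both lines, by −3.89 ± 0.31 in Panc1 (adjusted p = 1.35e-07) and −4.20 ± 0.31 in Panc89 (adjusted p = 6.08e-08). *ADAMTS15* was lower in Panc1 (−2.70 ± 0.27, adjusted p = 1.40e-06) and *ADAMTS1* higher in Panc89 Holoclone cells (3.49 ± 0.20, adjusted p = 4.89e-09). Of 18 AP-1, ETS and RUNX factors, which bind MMP promoters, 17 were tested, with 3 higher and 3 lower in Panc1 and 5 higher and 0 lower in Panc89. The 1 with a change over 2 on the log2 scale was the ETS factor *ELF3*, which was lower in Panc1 Holoclone cells by −3.57 ± 0.27 (adjusted p = 7.89e-08).

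The genes whose 6 group means most resembled those of a member were found by the mean absolute difference on the log2 scale after each gene's own mean was removed. They describe likeness over 6 groups and no relation between the genes. For *MMP14* these were *CYP39A1* (0.19) and *FLI1* (0.29), for *TIMP3* *LRRC38* (0.27) and *PDPN* (0.42), and for *TIMP1* the mitochondrial tRNA *MT-TD* and *GPRC5A* (both 0.23). *MMP2* was nearest to *HMOX1* (0.30) and *HOXC10* (0.37), *MMP1* to *RAC2* (0.82) and *GRAMD1B* (0.84), *MMP10* to *STS* (0.11) and *KRT23* (0.29), *MMP13* to *SULT1E1* (0.16) and *CXCL10* (0.21), and *MMP9* to *B3GALT1* (0.11) and *KIRREL3* (0.12). *MMP7* and *TIMP2* spanned less than 2 on the log2 scale and were not matched.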

How the data were processed

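RNA from 3 passages per group was made into stranded mRNA libraries, read paired-end on an Illumina NovaSeq and quantified by the authors with kallisto 0.46.1, a version taken from the submitters' processing notes, against the Ensembl transcriptome of GRCh38 with scaled TPM from tximport. The deposited values are log2(TPM + 1) for each gene symbol and library, and the authors' file gives no counts beside them. Whether kallisto was run with a strand setting is not given in the sources used here. The authors' own tests used DESeq2, which could not be run on these values.

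Here, all 18 libraries were fitted with limma 3.58.1 (lmFit, eBayes with trend) in R 4.3.3, with data.table (1.17.8), 1 mean for each of the 6 groups and two-sided p-values adjusted by Benjamini-Hochberg over the 16093 genes left by a filter of 1 TPM in 3 libraries. TPM were obtained by raising 2 to each value and subtracting 1. All 10 members are named, and of the related genes those called with a change over 2 on the log2 scale, at most 4 per list and line. The members, lists and rules were chosen with earlier results of these data known. Libraries of a line with the same replicate number were checked for pairing: 3 of 18 pairs had a correlation above 0.1 (range −0.318 to 0.190), so the groups were compared without pairing. Alternatives were a pseudocount of 0.1 TPM, no filter, upper quartile and median-of-ratios scaling, a replicate block, the compared groups fitted alone, and leaving out each library. The tests were tried on simulated data first. Positions, overlaps and 31-base words came from GENCODE 44 on GRCh38. Tables and figures used Python 3.11.15, pandas 2.3.3 and matplotlib 3.10.9.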

Additional observations from a re-analysis of the deposited data

Results flagged for a closer look

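For 7 members the Holoclone against Paraclone change differed between the lines in limma's test of the difference itself, given here as the log2 fold change in Panc89 minus that in Panc1. It was 6.30 for *MMP1* (adjusted p = 3.68e-05), 1.89 for *MMP9* (4.18e-04), 2.45 for *MMP13* (0.00119), 4.09 for *MMP14* (1.11e-06), −1.86 for *TIMP1* (0.00122), −1.02 for *TIMP2* (0.0220) and 6.26 for *TIMP3* (9.20e-12). *MMP14* was called in both lines with opposite signs and *TIMP1* in both with the same sign. *MMP1* and *MMP9* were called in Panc1 and not in Panc89, and *MMP13*, *TIMP2* and *TIMP3* in Panc89 and not in Panc1. As *MMP9* passed the filter through the Panc1 Paraclone libraries alone, its result here was partly set by the filter. Groups of 3 libraries are too small for a test of single outlying libraries.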

How the results depend on the processing

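Of the 690 alternative values of called member fold changes, 636 kept their call and 54 lost it, with no change of sign. Of the 16 differences without a call that were recomputed, 3 changed sign. With 1 library left out, *MMP1* between the Panc89 clones ranged from −1.45 to 0.37, *MMP10* between them from −0.26 to 0.96, and *TIMP2* between the Holoclone groups from −0.27 to 0.17. The last, −0.05 otherwise, was also 0.066 with upper quartile scaling, 0.14 with median-of-ratios scaling and 0.14 with the replicate block. The number of members called in Panc1 Holoclone against parental cells fell from 2 to 1 with no filter and with the replicate block, and ranged from 1 to 2 with 1 library left out. That in Panc89 Paraclone against parental cells fell from 5 to 3 with the groups fitted alone. Of all genes, 3377 were then called between the Panc89 clones, instead of 5746, and 1061 to 1571 between Panc1 Holoclone and parental cells with 1 library left out, instead of 1759, the lowest without Holoclone replicate 3. Replicate numbers did not pair the libraries. The replicate block moved the count of genes called between the Panc1 clones from 6006 to 5553 and that between the Panc89 clones from 5746 to 5211, and the calls of *MMP14* in Panc1 Holoclone against parental cells (adjusted p = 0.0584), *TIMP2* in Panc89 Holoclone against parental cells (0.0682) and *MMP1* between the Paraclone groups (0.185) were lost under it, while the calls of no other member were. Upper quartile scaling lowered the share of higher calls between the Panc1 clones from 73.3% to 51.3% and between the Panc89 clones from 62.8% to 52.5%, and left the directions of all called members as they were. With 0.1 TPM added instead of 1, differences of members near 0 grew most, for *TIMP3* between Panc89 Paraclone and parental cells from −2.32 to −5.24. The causes were not tested. Without counts, depth sets no stated limit here, and values well under 1 TPM may rest on few reads.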
